A study of Mus musculus with 8 samples.

Results

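The phagocyte NADPH oxidase was examined through 7 genes, Cybb, Cyba, Ncf1, Ncf4, Rac1, Rac2 and Hvcn1, chosen by symbol from the 24625 rows of a microarray study of mouse lung neutrophils. Each of the 7 genes had a single matched row, and no other row had to be chosen between. Wild type mice aged 6 to 12 weeks were given Streptococcus pneumoniae (SP), a common cause of bacterial pneumonia, or saline (PBS) as the control, at 2.3 µl per g of body weight through the trachea into the left lung. After 24 h the lungs were digested to single cells, and neutrophils were isolated on magnetic beads that bind Ly6G, a marker of this cell type in mice. Mouse Gene 1.1 ST arrays measured 4 PBS and 4 SP samples. Per the study's methods, purity was examined on stained cells of the SP samples only, where it was high. The few other cells there mostly looked like alveolar macrophages and rarely like eosinophils. The study also states that the Ly6G transcript was high in all samples. The values are log2 signals, so that a difference of 1 is a 2-fold difference, and the number of arrays limits their precision. The labels give the age range above, and the study's methods a narrower one. The study describes each array as a sample of a mouse, but the labels name no mouse for an array, so the p-values measure the spread between these samples.

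The oxidase is the enzyme with which phagocytes turn oxygen into superoxide to attack ingested microbes. Its catalytic subunit and a small partner sit together in the membrane, while regulatory subunits wait in the cytosol and join them, with a Rac GTPase, only after the cell is stimulated. The enzyme moves electrons across the membrane, and a proton channel carries out the charge that they leave behind. Inherited loss of a subunit causes chronic granulomatous disease, in which neutrophils take up bacteria and fungi but kill them poorly.

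Correlations over all rows were 0.979 to 0.997 among PBS arrays, 0.970 to 0.995 among SP arrays and 0.857 to 0.948 between the groups. By their marker genes, PBS replicate 2, with the highest epithelial and endothelial signal, and SP replicate 3, with the highest neutrophil list mean, stood apart. That mean was raised most by Camp (10.94, others of SP at most 8.17), Ltf (12.10, at most 10.22) and Ngp (13.34, at most 12.25). In SP replicate 3, S100a8 (13.32) was the highest and Csf3r (12.67) the lowest of the 8 arrays. The same list served for the centring on neutrophil markers.

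Of the 7 genes, 5 were higher in SP at an adjusted p of at most 0.05 and none was lower, while 21.5% of all rows were called higher and 22.6% lower (44.1% in either direction). The 5 were both membrane subunits, both cytosolic genes of the set and the proton channel. Rac1 and Rac2 were not called. Hvcn1 was called with a difference of at least 2-fold, as 6.37% of all rows were in that direction. For the same 5 genes each SP array exceeded each PBS array, against 27.2% of all rows, with a further 21.8% that lay wholly below (49.0% in either direction). The count was also 5 without PBS replicate 2 and SP replicate 3, and 4 without SP replicate 1. The median difference of the 7 genes was 0.66, and that of all rows was 0.10. In bulk samples, a change in the number of cells of a type and a change in RNA per cell cannot be told apart.

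**Figure D1:**
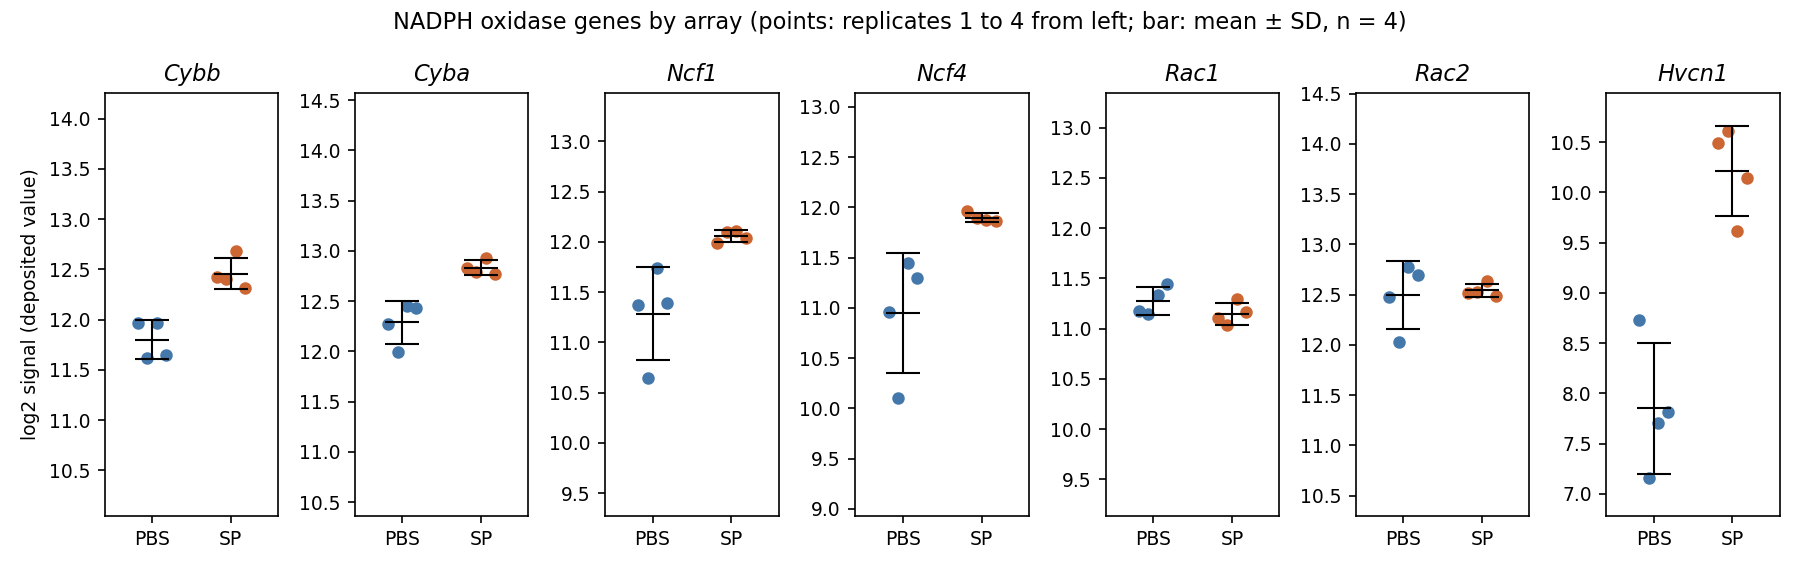
The deposited log2 signal of each of the 7 oxidase genes is plotted for the 4 PBS and 4 SP arrays, with the mean and SD, in panels that each span the same number of log2 units around the values of that gene. The SP points lie above all PBS points for Cybb, Cyba, Ncf1, Ncf4 and Hvcn1 and overlap them for Rac1 and Rac2, and levels are not comparable between panels because each row has its own probes.

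The membrane subunits were examined first. Cybb encodes gp91phox, also called Nox2, the catalytic subunit that passes electrons from NADPH to oxygen. Its log2 signal was 11.96, 11.61, 11.97 and 11.65 in PBS replicates 1 to 4 and 12.42, 12.41, 12.68 and 12.32 in SP replicates 1 to 4. The lowest SP array lay 0.35 above the highest PBS array. The means were 11.80 ± 0.19 in PBS and 12.46 ± 0.16 in SP (SD, n = 4 each). This is a 1.58-fold rise, a log2 difference of 0.66 with a standard error of 0.12 (limma, adjusted p = 0.00293).

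Cyba encodes p22phox, the partner without which the catalytic subunit is not stable in the membrane. Its PBS values were 12.27, 12.00, 12.45 and 12.43, and its SP values 12.83, 12.79, 12.93 and 12.77. Again the groups did not overlap, and the SP arrays were close to each other. Cyba rose 1.46-fold, from 12.29 ± 0.21 to 12.83 ± 0.07 (SD, n = 4), a log2 difference of 0.54 with a standard error of 0.11 (adjusted p = 0.00495 by limma). Both were among the smaller rises of the 5 genes. The call of Cyba was lost when arrays were centred on neutrophil markers (0.73, adjusted p = 0.0800 by limma). That of Cybb held under all alternatives run for single genes.

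Because the subunits work as a heterodimer, the log2 ratio of Cybb over Cyba was taken within each array, which does not depend on how arrays are centred. It was -0.31, -0.38, -0.48 and -0.78 in PBS and -0.41, -0.38, -0.25 and -0.45 in SP. The groups overlapped, and the ratio differed by 0.12 between SP and PBS (two-sided exact permutation test over 70 arrangements, p = 0.371, also 0.371 after adjustment over 3 ratios). The smallest p this test allows is 0.0286, which 1 ratio alone could not bring under 0.05 after adjustment over 3, so the test is limited by 4 arrays per group.

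The cytosolic subunits of the set are Ncf1 and Ncf4. Ncf1 encodes p47phox, the organiser that, once phosphorylated, docks the cytosolic subunits onto p22phox. Its PBS values were 11.37, 10.64, 11.74 and 11.39, and its SP values were 11.99, 12.10, 12.11 and 12.04. The PBS arrays were spread over 1.10 log2 units and the SP arrays over 0.12. Ncf1 rose 1.71-fold, from 11.29 ± 0.46 to 12.06 ± 0.06 (SD, n = 4), with a log2 difference of 0.77 and a standard error of 0.21 (limma, adjusted p = 0.0168).

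Ncf4 encodes p40phox, which binds a lipid of the phagosome membrane and supports oxidase activity there. Its PBS values were 10.95, 10.10, 11.45 and 11.29, and its SP values were 11.96, 11.89, 11.88 and 11.87. As for Ncf1, the spread was wide in PBS (range 1.34) and narrow in SP (range 0.098). Ncf4 rose 1.93-fold, a log2 difference of 0.95 with a standard error of 0.26 (limma, adjusted p = 0.0196). The 95% interval of its fold ran from 1.27 to 2.93, so that it cannot be placed on either side of 2-fold. Its call was narrowly lost without SP replicate 1 (0.93, adjusted p = 0.0501).

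The log2 ratio of Ncf1 over Ncf4 was 0.41, 0.54, 0.30 and 0.10 in the PBS arrays and 0.025, 0.20, 0.23 and 0.17 in the SP arrays. It fell by 0.18 between PBS and SP with overlapping groups (two-sided exact permutation test, p = 0.171, and 0.300 after adjustment over the 3 ratios). Across the 8 deviations from the group means, the genes moved closely together (r = 0.955), a description in which both rows share the same arrays. The largest deviations were those of PBS replicate 2 (-0.64 and -0.85). In SP, Ncf1 deviated by -0.070, 0.039, 0.050 and -0.019 and Ncf4 by 0.064, -0.0070, -0.023 and -0.034, which did not run together. The coefficient was higher for Cyba with Rac2 (0.985) and for Ncf4 with Rac2 (0.975).

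Cybb, Cyba and Ncf1 were the members with an entry in the RefSeq promoter table of GRCm38.p6, while Ncf4, Rac1, Rac2 and Hvcn1 had none. The 3 upstream sequences are shown because these genes rose together. Each line gives the 250 bases that precede the start of transcription, 5′ to 3′ on the strand of the gene. Capitals mark matches on either strand to GAGGAA, a core bound by the myeloid factor PU.1, to the CCAAT box, to the GC box with the letters GGGCGG, and to the paired interferon response motif, where 2 copies of GAAA stand with any 2 bases between them.
Cybb, chrX:9469325-9469574, minus strand: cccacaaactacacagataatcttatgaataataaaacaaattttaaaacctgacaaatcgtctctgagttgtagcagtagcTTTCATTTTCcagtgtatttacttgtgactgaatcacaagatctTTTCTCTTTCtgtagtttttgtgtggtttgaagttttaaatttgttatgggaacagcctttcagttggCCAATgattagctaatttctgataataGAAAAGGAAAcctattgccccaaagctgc
Cyba, chr8:122432941-122433190, minus strand: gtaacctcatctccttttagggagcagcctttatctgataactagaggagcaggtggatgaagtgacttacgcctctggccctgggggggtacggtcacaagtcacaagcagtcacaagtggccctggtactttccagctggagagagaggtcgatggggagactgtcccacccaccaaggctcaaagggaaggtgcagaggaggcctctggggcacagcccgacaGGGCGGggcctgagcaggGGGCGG
Ncf1, chr5:134229626-134229875, minus strand: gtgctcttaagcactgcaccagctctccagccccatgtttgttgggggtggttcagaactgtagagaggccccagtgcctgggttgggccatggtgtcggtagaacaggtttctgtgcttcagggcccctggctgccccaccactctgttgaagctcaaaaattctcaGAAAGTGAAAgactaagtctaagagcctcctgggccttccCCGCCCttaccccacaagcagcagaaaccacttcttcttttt

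The paired interferon response motif was found at 3 places in the Cybb window, the nearest between 29 and 20 bases before the start, and at 1 place in the Ncf1 window, 82 to 73 bases before the start. It was present in 3.0% of all 32851 windows of this length in the table. The Cybb window also held a CCAAT box (56 to 52 bases before the start), which 33.8% of windows had. GGGCGG was found at 2 places in Cyba and at 1 place in Ncf1, and in 32.7% of all windows. GAGGAA was found in none of the 3 windows, against 23.3% of all. No match overlapped another motif. These are matches of letters, and binding was not measured. The motifs were chosen after the sequences had been seen, so the shares of all windows do not test for an excess.

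The Rac GTPases were compared next. Rac2, the form found mainly in blood cells, and Rac1, which most cell types express, are switches that activate the assembled oxidase when loaded with GTP. Rac2 had PBS values of 12.48, 12.03, 12.78 and 12.70 and SP values of 12.52, 12.53, 12.64 and 12.49. The SP values fell inside the PBS range. The means were 12.49 ± 0.34 and 12.54 ± 0.07 (SD, n = 4), and the difference of 0.049 was not called (95% interval -0.31 to 0.41, adjusted p = 0.801 by limma). It was negative without PBS replicate 2 (-0.11), with array weights (-0.093) and after another quantile normalization (-0.16).

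Rac1 had PBS values of 11.17, 11.15, 11.33 and 11.44 and SP values of 11.10, 11.03, 11.29 and 11.16. The groups overlapped, with the lowest values in SP. The difference was -0.13, with a 95% interval from -0.34 to 0.091 (adjusted p = 0.282 by limma). Its sign and its call depended on the scaling. It was 0.15 with arrays centred on their median, 0.058 with arrays centred on neutrophil markers, and -0.35 after another quantile normalization, where it was called (adjusted p = 0.00567), as it was with array weights (-0.23, 0.0422). Centring arrays on their median moved the median of all rows from 0.10 to 0.38, centring on neutrophil markers moved it to 0.29, and another quantile normalization to 0.016. Relative to that median, Rac1 stood at -0.23, -0.23, -0.23 and -0.37 in the deposited values and these 3 scalings, and Rac2 at -0.054, -0.054, -0.054 and -0.17. Centring adds the same amount to all differences, so the first 3 values of each gene are equal by construction. The other 5 members stood between 0.34 and 2.46 above the median of all rows.

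The log2 ratio of Rac2 over Rac1 was 1.31, 0.88, 1.45 and 1.25 in PBS and 1.42, 1.49, 1.35 and 1.33 in SP. The groups overlapped, and the difference of 0.18 was not called (two-sided exact permutation test, p = 0.200, and 0.300 after adjustment over the 3 ratios). Rac2 and Ncf4 are near neighbours, with 10 protein-coding genes between them in the RefSeq annotation, and their differences were 0.049 and 0.95.

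Hvcn1 encodes the voltage-gated proton channel that balances the charge moved by the oxidase and limits acid build-up in the cytosol. It had the largest difference of the 7 genes. Its PBS values were 8.73, 7.16, 7.71 and 7.81, and its SP values were 10.49, 10.61, 9.62 and 10.15. The lowest SP array, replicate 3, lay 0.88 above the highest PBS array, replicate 1. Hvcn1 rose 5.14-fold, from 7.85 ± 0.65 to 10.22 ± 0.45 (SD, n = 4), a log2 difference of 2.36 with a standard error of 0.34 (95% interval of the fold 3.0 to 8.82, adjusted p = 0.000845 by limma). Of all rows, 1.5% had a larger difference. The difference stayed between 2.13 and 2.65 under every alternative run.

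Hvcn1 is also known from B cells, so the markers of that cell type are given. Of 10 B cell markers, 9 were lower and none was called higher, against 22.6% and 21.5% of all rows. The list mean ranged from 7.36 to 8.27 in PBS and from 5.83 to 6.78 in SP. The brightest of them, Cd79b and Cd79a, both parts of the B cell receptor, were at 9.42 ± 0.44 and 9.03 ± 0.52 in PBS and 7.79 ± 0.72 and 7.27 ± 0.76 in SP (SD, n = 4). The 4 SP arrays had the same order for Hvcn1 and the B cell mean, while the PBS arrays did not. PBS replicate 1 was the highest PBS array for Hvcn1 and also for the B cell, monocyte and macrophage, alveolar macrophage, eosinophil, and T and NK cell lists. The part of any cell type in the Hvcn1 difference was not tested.

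**Figure D2:**
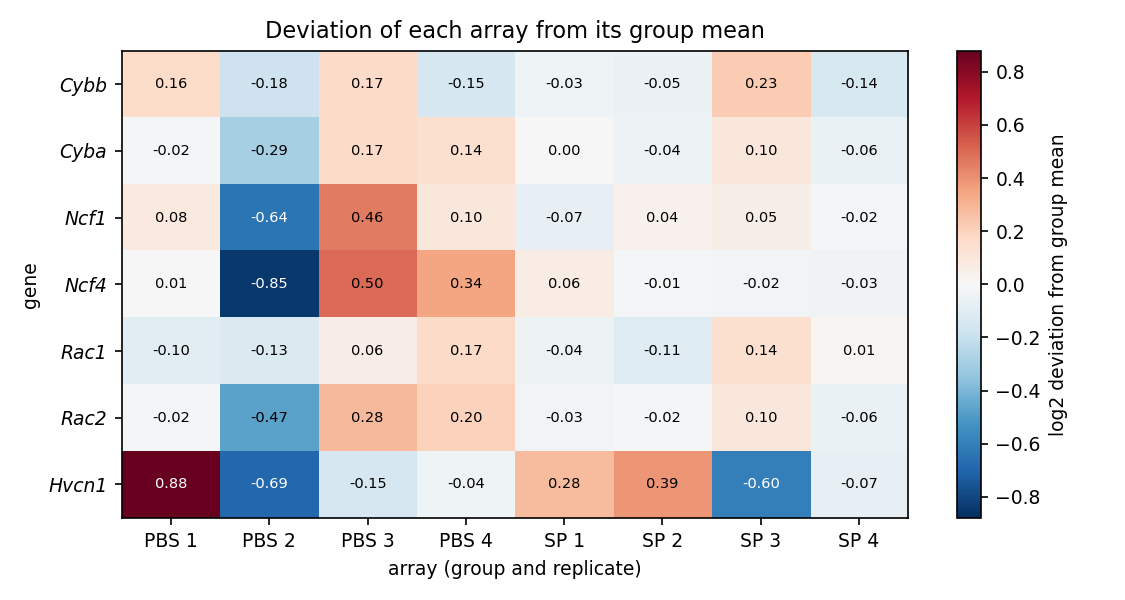
Each cell gives the deviation of 1 array from the mean of its group, in log2 units, for the 7 oxidase genes in rows and the 8 arrays in columns. PBS replicate 2 is below its group mean for all 7 genes, by up to 0.85 for Ncf4, whereas the SP arrays deviate by at most 0.23 for every gene other than Hvcn1.

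The spread within PBS had a common part. PBS replicate 2 was the lowest PBS array for each of the 7 genes, by 0.13 to 0.85 below the group mean. Its epithelial and endothelial markers were the highest of the 8 arrays, with a list mean of 10.04 for ciliated epithelium, against 9.13 to 9.55 in the other PBS arrays, and of 11.21 against 10.22 to 10.87 for endothelium. Without this array the differences were smaller for Cybb (0.60), Cyba (0.45), Ncf1 (0.56), Ncf4 (0.67) and Hvcn1 (2.13), and all 5 remained called.

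Markers of other cells moved with the treatment and stand beside these results. Over all rows, 21.5% were called higher and 22.6% lower. Neutrophil markers were bright in both groups, at a list mean of 12.30 ± 0.16 in PBS and 12.12 ± 0.50 in SP (12 of 13 genes measured, Ly6g had no matched row), with none called higher and 3 lower. Ciliated markers were all lower in SP (9 of 9), as were 10 of 11 secretory and alveolar epithelial, 8 of 10 endothelial and 3 of 8 fibroblast markers. Of 10 monocyte and macrophage markers, 5 were higher and none lower. That list ranged from 8.10 to 8.99 in PBS and from 8.41 to 9.72 in SP, and its brightest genes were Cd68 and Csf1r. Cd68, a lysosomal protein of phagocytes, rose 2.50-fold (adjusted p = 0.00252 by limma). Csf1r, the receptor that macrophages need to survive, was at 10.61 ± 0.54 and 11.34 ± 0.28. Its groups overlapped and it was not called (adjusted p = 0.0547 by limma). Of 9 alveolar macrophage markers, 5 were lower and 1 higher. The T and NK cell list (10 measured) and the eosinophil list (6 measured) each had 1 gene higher and 1 lower. The alveolar macrophage marker Marco was near 5 in every array (4.93 to 5.49), and the eosinophil markers Prg2 and Epx were between 4.14 and 5.02. Other genes of these lists were brighter. Chil3 was at 11.03 ± 0.49 in PBS and 11.99 ± 0.39 in SP, and Ear2 at 11.50 ± 0.42 and 10.01 ± 0.09. Siglecf, which is on both lists, was at 8.14 ± 0.57 and 7.28 ± 0.63. SP replicate 3 had the lowest monocyte and macrophage mean of SP (8.41, within the PBS range), together with the lowest Hvcn1 and the highest Cybb, Cyba and Ncf1 of SP. The part of these cells in the oxidase differences was not tested.

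**Figure D3:**
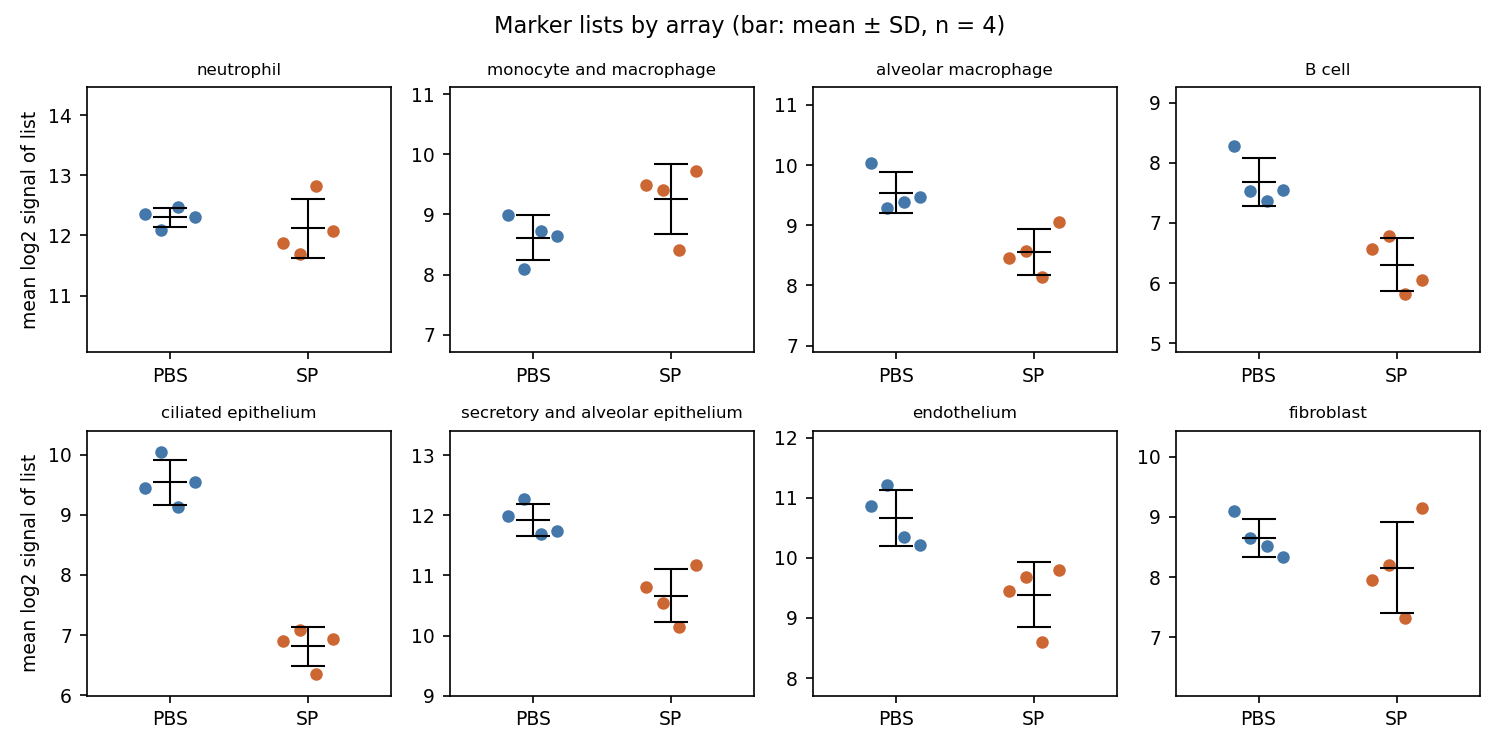
The mean log2 signal of 8 lists of cell type markers is plotted by array for PBS and SP, with the mean and SD of the 4 arrays, in panels of equal span. Ciliated, secretory and alveolar, endothelial, alveolar macrophage and B cell lists are lower in all SP arrays, the neutrophil and fibroblast lists overlap, and the monocyte and macrophage list overlaps through SP replicate 3 at 8.41.

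Related genes were examined through lists. Cybc1, a chaperone needed for the membrane subunits, had means of 9.94 ± 0.55 (PBS) and 9.72 ± 0.18 (SP, adjusted p = 0.475) and changed sign with centring on the median (0.061).

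Other NADPH oxidases were mostly dim. Of 7 measured genes of 9, 2 were higher and 1 lower, against 21.5% and 22.6% of all rows. Noxo1, an organiser related to p47phox, rose 1.98-fold from 6.21 ± 0.17 to 7.20 ± 0.56, with overlapping groups (adjusted p = 0.0155 by limma). Noxa1, an activator of Nox1, fell 1.71-fold from 6.24 ± 0.31 to 5.47 ± 0.09. Duoxa2, a maturation factor of the dual oxidases, passed the test at levels of 4.32 ± 0.08 and 4.78 ± 0.14 (0.00395). Nox4, an oxidase of vessel and connective tissue cells, was at 7.02 ± 0.63 and 6.79 ± 0.97 and was not called.

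The list for NADPH supply held 11 enzymes, with 2 called higher, 4 lower and 5 neither, against 21.5% of all rows higher and 22.6% lower. Not all of them make NADPH themselves, and the 2 called higher, Rpe and Hk3, do not. Of those that do, Me1 and Idh1 were lower, and G6pdx, Pgd and H6pd were not called. The median difference of the list was -0.23, and 0.053 with arrays centred on their median. In the oxidative branch of the pentose phosphate pathway, G6pdx (glucose-6-phosphate dehydrogenase, its first enzyme) had means of 12.10 ± 0.26 (PBS) and 11.60 ± 0.32 (SP), just outside the threshold (-0.50, adjusted p = 0.0580 by limma). It was called as lower without SP replicate 3 (-0.66, 0.00854) or PBS replicate 2 (-0.61, 0.0336), with array weights (-0.75), with a robust prior and trend (0.0462), after another quantile normalization (-0.72) and with the replicate number as a block (-0.50, 0.0253). It was nearer 0 with arrays centred on their median (-0.22, 0.369) or on the neutrophil markers (-0.31, 0.399). Pgls, the lactonase of the second step, fell by 0.69 on the log2 scale (0.00565), a call lost after another quantile normalization (-0.24, 0.0997) and with centring on the neutrophil markers (-0.51, 0.294). Pgd, the third enzyme, was at 12.57 ± 0.22 and 12.56 ± 0.06. In the branch that interconverts sugars, Rpe was 1.61-fold higher (0.00874), Tkt was 1.70-fold lower (0.0228), and Rpia and Taldo1 were not called (-0.23 and 0.19). The Tkt call was lost when PBS replicate 3 or 4, or SP replicate 1 or 2, was left out (up to 0.0587), by the methods' t-test (0.0515), and with centring on the median (-0.48, 0.0900) or on the neutrophil markers (-0.58, 0.138).

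Larger falls were found for enzymes that make NADPH outside this pathway. Me1, the cytosolic malic enzyme, was at 9.99, 10.32, 9.73 and 9.92 in PBS and 8.11, 7.49, 7.22 and 8.69 in SP, a fall of 4.32-fold (adjusted p = 0.000840 by limma). Idh1, the cytosolic isocitrate dehydrogenase, was 3.16-fold lower (0.000365). The groups did not overlap for either gene. H6pd, the counterpart of G6pdx in the endoplasmic reticulum, was not called (-0.16), and Hk3, a hexokinase of myeloid cells that feeds glucose into the pathway, rose 2.52-fold (0.0129). Epithelial and endothelial marker lists were lower in the same SP arrays.

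**Figure D4:**
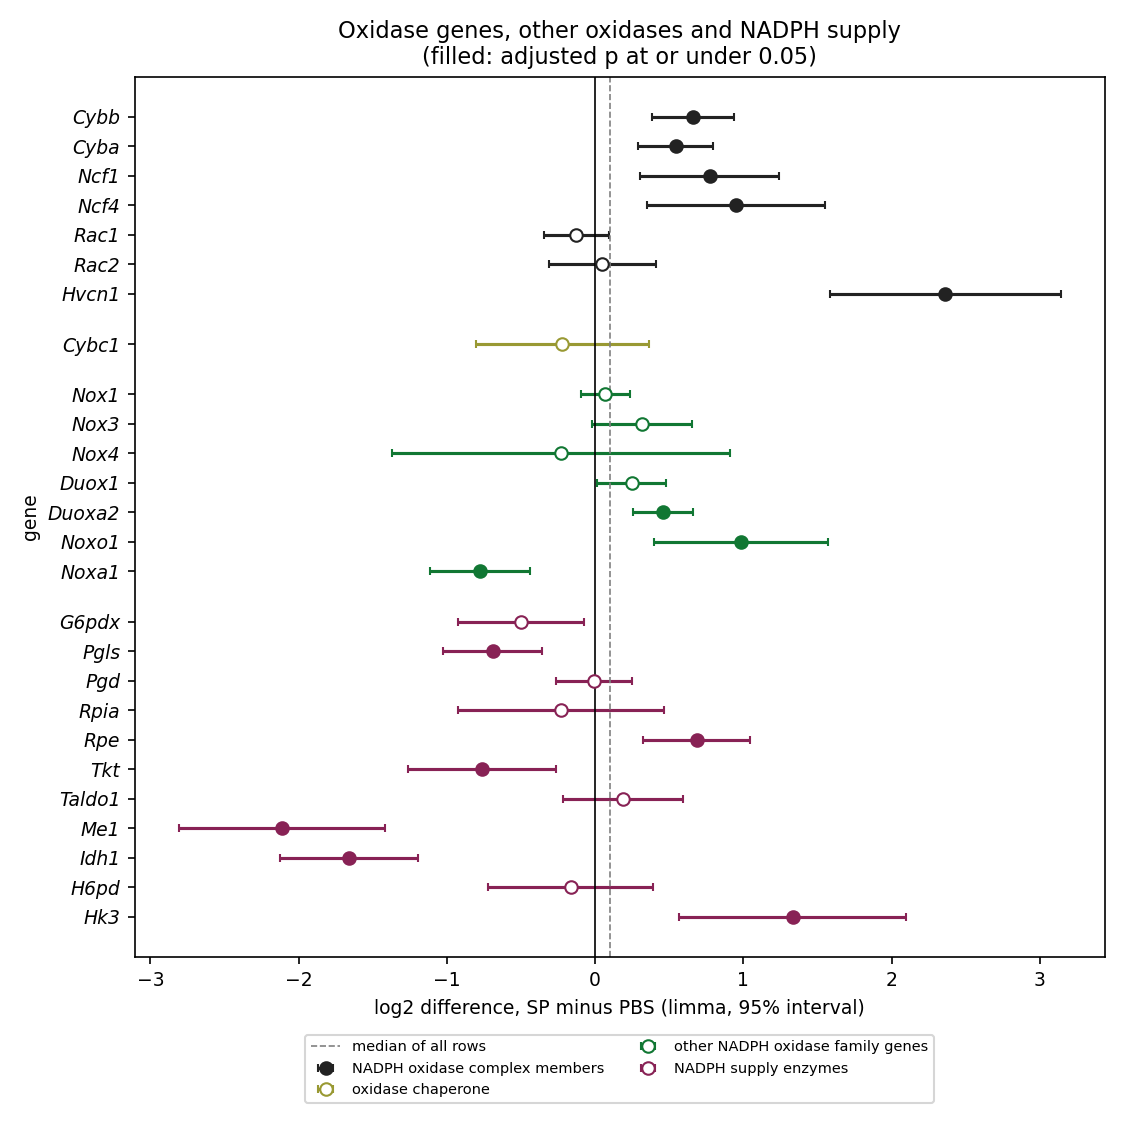
The log2 difference between SP and PBS is shown with its 95% interval from limma for the 7 oxidase genes, for Cybc1, for other NADPH oxidase genes and for NADPH supply enzymes, with filled points for adjusted p of at most 0.05 and a dashed line at the median of all rows, 0.10. Hvcn1 at 2.36 is the highest point and Me1 at -2.11 the lowest. Among the members, Cybc1 and supply enzymes, centring on the median moves Rac1, Cybc1, Pgd, Rpia and H6pd from left to right of 0.

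Regulators of Rac went both ways, with 4 of 13 measured genes higher and 3 lower, against 21.5% and 22.6% of all rows. Vav1, the exchange factor that loads Rac in blood cells, rose 3.15-fold, from 10.51, 9.91, 11.06 and 10.81 in PBS to 12.44, 12.48, 11.89 and 12.09 in SP (adjusted p = 0.00106 by limma). All SP values were above all PBS values. Its broadly expressed relative Vav2 was 2.61-fold lower (0.000218), and Rac3, the third Rac gene, 2.91-fold lower (0.000234). The other genes called higher were Elmo1 (1.03), part of the Dock2 exchange complex, Tiam1 (0.73) and Arhgdia (0.47), a protein that holds Rac in the cytosol. Chn2 was the other gene called lower (-1.05).

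The list for oxidase assembly held 18 genes of kinases, lipid kinases and a phospholipase. Of these, 8 were lower and 4 higher, against 22.6% and 21.5% of all rows. The genes that rose were Pik3r5 (1.39), a regulatory subunit of the phosphoinositide kinase downstream of chemoattractant receptors, Btk (0.91), Syk (0.79), which links Fc receptors and integrins to the oxidase, and Prkcd (0.53), a protein kinase C form that phosphorylates p47phox. The 3 largest falls were those of Prkcz (-2.67, adjusted p = 6.13e-05 by limma), Prkca (-1.68, 0.00877) and Mapk14 (-1.43, 0.000198), which encodes the stress kinase p38α. Prkcb, a further protein kinase C form, fell without overlap from 11.10 ± 0.42 to 10.04 ± 0.30 (-1.06, 0.00623). Map3k5 (-1.03), Irak4 (-0.66), Akt2 (-0.57) and Pak1 (-0.41) were the other genes called lower. Of the genes for proton and charge balance, Kcnn4, a calcium-activated potassium channel, rose 4.17-fold from 5.68 ± 0.26 to 7.74 ± 0.61 (0.000747), and Car4, a carbonic anhydrase that is also on the alveolar macrophage list, fell 2.38-fold (0.00797). Clcn3, a chloride-proton exchanger, was lower (-0.74). They were the 1 gene called higher and the 2 called lower of 6 measured.

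Enzymes that use superoxide and peroxide changed in both directions. Of 12 measured genes, 3 were higher and 4 lower, against 21.5% and 22.6% of all rows. Sod2, the mitochondrial superoxide dismutase, rose 5.73-fold, from 10.47 ± 0.06 to 12.98 ± 0.04 (limma, adjusted p = 4.37e-07), and Prdx5, a peroxiredoxin, 2.01-fold (0.00110). Cat, which encodes catalase, fell 3.93-fold, from 11.91 ± 0.24 to 9.93 ± 0.27 (4.97e-05). Sod1 (-0.51), Gpx1 (-0.58) and Gpx4 (-0.40) were lower as well. Mpo, the granule enzyme that turns peroxide into hypochlorous acid, was at 4.45 ± 0.14 and 4.92 ± 0.33, a dim row that narrowly passed (0.0456). Mature neutrophils are known to carry the protein after its transcript has gone.

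Among transcription factors known at oxidase genes, 7 of 13 were higher and none was lower, against 21.5% and 22.6% of all rows. Irf1, an interferon-induced factor, rose 3.27-fold with no overlap (adjusted p = 0.000291 by limma), and Cebpe, a factor of late granulocyte maturation, 3.46-fold, from 6.23 ± 0.63 to 8.03 ± 0.19 (0.00139). Irf8 was 2.37-fold higher with overlapping groups (0.0218), and Elf1, Irf2 and Cebpb rose by 0.66, 0.77 and 1.0. The seventh, Hoxa9, was dim (4.22 ± 0.06 and 4.52 ± 0.17). Spi1, which encodes PU.1, was at 12.32, 11.75, 12.66 and 12.68 in PBS and 12.71, 12.71, 12.43 and 12.57 in SP. Its difference of 0.25 was not called (limma, adjusted p = 0.318).

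Rows with the most similar pattern to each member were sought by Pearson correlation over the 8 arrays among 10936 other rows that had a symbol and were brighter than the median. Such coefficients share the arrays and the difference between groups and are given as a description. For Cybb they were Snord22 (r = 0.986), a small nucleolar RNA, Rab1a (0.984), a GTPase of traffic from the endoplasmic reticulum, and Hspa13 (0.982). The closest row was Rab7, a GTPase of late endosomes, for Cyba (0.997), the cytokine subunit gene Ebi3 for Ncf1 (0.988), the ion channel gene Trpv2 for Ncf4 (0.997) and Ankrd49 for Hvcn1 (0.994). For Rac2 it was Itgb2 (0.993), the shared chain of the leukocyte integrins, which also did not differ between groups by the test (0.076, adjusted p = 0.652 by limma), and for Rac1 it was Emd (0.964).

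**Figure D5:**
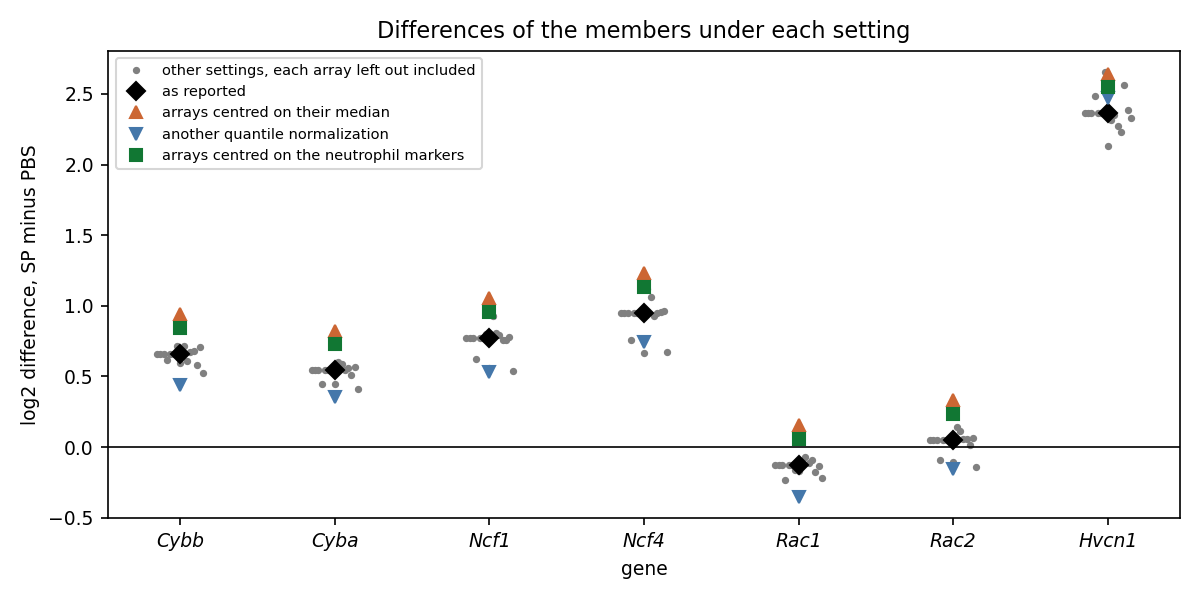
The log2 difference of each oxidase gene between SP and PBS is plotted as reported, under 3 other scalings of the arrays and under all other settings, which include leaving out each array. Cybb, Cyba, Ncf1, Ncf4 and Hvcn1 stay above 0 under every setting, between 0.35 and 2.65, whereas Rac1 runs from -0.35 to 0.15 and Rac2 from -0.16 to 0.33, so that their direction depends on the scaling.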

How the data were processed

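Per the study's methods and the submitters' processing notes (Affymetrix Expression Console, RMA, Partek), the authors deposited log2 values after background correction, adjustment for GC content and sequence, and quantile normalization, with probes summarised per gene by median polish. The deposited medians were 6.06 to 6.20 in PBS and 5.78 to 5.91 in SP, and no pair of arrays was identical. Values are relative within an array, and bright rows may be compressed. Of 24625 rows, 19915 (80.9%) were named through RefSeq transcripts of GRCm38.p6. Duox2, Duoxa1, Arhgap15, Prdx2 and single markers had no matched row. The genome build of the arrays is not given in the sources used here.

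All rows were compared with limma 3.58.1 (R 4.3.3; lmFit, eBayes, two-sided, no covariates). P-values were adjusted over all rows by Benjamini-Hochberg, with an adjusted p of at most 0.05 as the threshold and at least 2-fold as a further one. The design was tested on simulated data. Ratios of members used an exact permutation test. The members and gene lists were chosen with earlier results of these data known, and the motifs after the sequences had been seen. Genes named were the members, all of the NADPH supply and chaperone lists, up to 3 genes with the largest differences at 2-fold without overlap in each other pathway list, members of counts of 5 or fewer, the 2 brightest genes of a marker list, and the closest rows by correlation. Elf1, Irf2, Irf8, Cebpb, Hoxa9, Spi1, Nox4, Marco, Chil3, Ear2, Siglecf, Prg2 and Epx were named after their values had been seen. So were Prkcb, Map3k5, Irak4, Akt2 and Pak1. Alternatives were the methods' t-test (named there as one-way analysis of variance, the same test for a pair of groups), a block for the replicate number, a robust prior with a trend, weighted arrays, 3 other scalings, dim rows left out, 1 row per symbol, each array left out, and limma treat. Limma treat was used for the counts over all rows and not for single genes. Leaving out PBS replicate 2 and SP replicate 3 together was chosen after seeing the data. Python 3.11.15 drew the figures. Not every gene related to the oxidase is reported here.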

Additional observations from a re-analysis of the deposited data

Results flagged for a closer look

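In 70 groups of 4 arrays examined, 4 had 1 array far from the other 3 by Dixon's test, and chance alone gives about 1 in 20 such groups. None concerned an oxidase member or a ratio of members. Rpe was at 9.96 in SP replicate 3, against at most 9.46 in the other SP arrays. Car4 was at 10.84 in SP replicate 4, against at most 9.95, and Cat was at 10.34 in the same array, against at most 9.82. Cebpe was at 5.30 in PBS replicate 2, against at least 6.43 in the other PBS arrays.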

How the results depend on the processing

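The count of 5 members higher in SP was 4 with arrays centred on the neutrophil markers and 4 or 5 with any 1 array left out. Cybb, Ncf1 and Hvcn1 kept direction and call under all alternatives run for single genes, which do not include limma treat. Leaving out 1 array gave differences of 0.58 to 0.72 for Cybb, 0.45 to 0.60 for Cyba, 0.56 to 0.92 for Ncf1, 0.67 to 1.12 for Ncf4 (0.93, adjusted p = 0.0501 by limma, without SP replicate 1), -0.17 to -0.071 for Rac1, -0.11 to 0.14 for Rac2 and 2.13 to 2.65 for Hvcn1. Cyba lost its call with centring on the neutrophil markers (0.73, adjusted p = 0.0800 by limma). Rac1 reversed with centring on the median (0.15) and on the neutrophil markers (0.058) and was called with array weights (-0.23) and another quantile normalization (-0.35). Rac2 reversed with array weights (-0.093), another quantile normalization (-0.16), and without PBS replicate 2 alone (-0.11) or with SP replicate 3 (-0.14). Among the pathway genes followed through the alternatives, centring on the median reversed Cybc1 (0.061), Pgd (0.27), Rpia (0.053) and H6pd (0.12). Centring on the neutrophil markers reversed Pgd (0.18) and H6pd (0.021). Rpia also reversed with array weights (0.11), another quantile normalization (0.15), and without SP replicate 3 alone (0.11) or with PBS replicate 2 (0.11). Taldo1 reversed with another quantile normalization (-0.010) and without both arrays (-0.029), H6pd without SP replicate 3 (0.00035) or both arrays (0.089), and Pgd when PBS replicate 3 (0.056), PBS replicate 4 (0.027) or SP replicate 1 (0.019) was dropped. Leaving out 1 array gave ranges of -0.38 to 0.11 for Rpia, -0.41 to 0.00035 for H6pd and -0.11 to 0.056 for Pgd. The cause was not tested, beyond the centring, which adds 1 amount to all differences.

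Of all rows, 10860 were called, 1568 at least 2-fold higher and 2773 lower (63.9% lower). Centring on the median called 18255 rows, 2375 at least 2-fold higher (44.4% lower), centring on the neutrophil markers 4602 (50.1% lower), another quantile normalization left 53.9% lower, and limma treat called 1572, 660 higher and 912 lower. Without any 1 array the counts were 8200 to 10907, 1425 to 1634 and 2470 to 3029. The deviations of same-numbered arrays were correlated at r = 0.016, 0.030, 0.35 and -0.27 for numbers 1 to 4. Of the PBS arrays, only replicate 3 had the SP array of its own number as closest partner, so the numbers were not taken as pairs. With the replicate number as a block 9842 rows were called, G6pdx was called (-0.50, adjusted p = 0.0253 by limma) and no other call of a member or named pathway gene changed. In an exact sign test of the 4 paired differences no ratio of members could reach 0.05, since the smallest p is 0.125. The ratios were 0.019 to 0.18 for Cybb over Cyba, -0.26 to -0.11 for Ncf1 over Ncf4 and 0.062 to 0.25 for Rac2 over Rac1 with 1 array left out.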
